A study of Mus musculus with 16 samples.

Results

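Tmem106b, Mapt, Tardbp, Vcp, Chmp2b, Tbk1, Sqstm1, Optn and Ubqln2 are mouse counterparts of genes linked to frontotemporal dementia other than the progranulin gene Grn. All 9 were found by symbol among the 53801 gene identifiers of a count table of mouse cortex, and their transcripts were followed in 3 groups of mice. KO AAV mice (n = 5, 3 males and 2 females, 12 to 12.7 months old) lacked Grn and had received, 8 months earlier, 300000000000 vector genomes of AAV-8D3:PGRN into the tail vein. KO saline mice (n = 5, 4 males and 1 female, 12 to 12.7 months) lacked Grn and received saline, and WT saline mice (n = 6, 3 males and 3 females, 12.2 to 12.93 months) carried Grn and received saline. All animals were C57BL/6, with 1 library per animal, and the knockout allele of Grn is not named in these sources. The virus is an adeno-associated vector that directs expression to the liver. Its cargo is human progranulin joined to 8D3, a single-chain antibody fragment that binds the mouse transferrin receptor. The transgene was thus directed to the liver, and counts of mouse Grn in the cortex do not measure it. Neither the labels nor the sample annotation says how the mice were distributed over litters or cages. The tests below treat the animals as independent, which could not be checked.

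Frontotemporal lobar degeneration is divided by the protein that accumulates in neurons. Loss of progranulin, a lysosomal and secreted growth factor, leads to the form with inclusions of TDP-43, the RNA-binding protein encoded by Tardbp, whereas mutations of Mapt lead to the form with inclusions of tau. Most of the other genes act in the clearance of damaged protein and membrane. TBK1 is a kinase that phosphorylates the autophagy receptors optineurin (Optn) and p62 (Sqstm1). VCP is an ATPase that pulls ubiquitinated proteins out of complexes and membranes. Ubiquilin 2 (Ubqln2) carries ubiquitinated proteins to the proteasome, and CHMP2B is a subunit of the ESCRT-III complex that cuts membranes at endosomes. TMEM106B is a lysosomal membrane protein whose common human variants modify disease risk in carriers of progranulin mutations.

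Total counts per library ran from 1614251 to 1867168 in KO AAV, from 1351974 to 1720657 in KO saline and from 1626788 to 2119019 in WT saline. The KO saline totals were on average lower than those of WT saline (two-sided exact permutation p = 0.0173) and of KO AAV (KO AAV over KO saline, exact p = 0.0238), with an adjusted p of 0.107 for each over 9 comparisons of library measures. Grn had 0 counts in each of the 5 KO AAV and 5 KO saline libraries and 16 to 67 counts in each of the 6 WT saline libraries. Neuronal markers were present in all libraries: each of 10 passed the count filter, and their summed level was 5357 to 7037 CPM in KO AAV, 4485 to 7386 CPM in KO saline and 4377 to 7515 CPM in WT saline. CPM here are counts brought to a common library total, after TMM scaling, a correction for differences in composition between libraries. The libraries also differed in how transcripts with GC-rich ends compared with transcripts with AT-rich ends. This was measured as a GC slope, the slope of a library's log2 deviations from each gene's mean on the GC content of the last 500 transcript bases, per 10 percentage points of GC. It lay between -0.15 and 0.02 in KO AAV, between -0.16 and 0.15 in KO saline and between -0.07 and 0.20 in WT saline. WT saline replicate 4, at 0.20, and KO saline replicate 3, at 0.15, stood at the GC-rich end, and KO saline replicates 2 and 5 and KO AAV replicate 1 stood at the other.

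Of the 9 genes, 8 passed the count filter (filterByExpr) and were tested with edgeR's quasi-likelihood method, in 1 fit of 10363 genes and all 16 libraries; Optn, with 85 counts in all, did not pass. None of the 8 changed in any of the 3 comparisons after Benjamini-Hochberg adjustment over the 10363 genes (threshold 0.05), and none had an unadjusted p under 0.05. In KO saline over WT saline, where 0.0482% of all tested genes passed, the lowest unadjusted p of the 8 was 0.059, for Ubqln2, and the lowest adjusted p was 0.994. In KO AAV over KO saline, where 0.0193% passed, these values were 0.0515, for Sqstm1, and 1.00. In KO AAV over WT saline, where 0.00965% passed, they were 0.0554, for Tbk1, and 0.881. The shares of all tested genes at an unadjusted p under 0.05 were 4.11%, 2.49% and 4.02% in the same order of comparisons. For none of the 9 genes were the groups of a comparison free of overlap. The share of tested genes whose groups did not overlap was 0.396% in KO saline over WT saline, 0.502% in KO AAV over KO saline and 0.318% in KO AAV over WT saline. A p that misses the threshold does not show equal levels, and the 95% intervals give the sizes of change that the data allow. Over the 8 genes they lay between 0.726-fold and 1.62-fold for KO saline over WT saline, between 0.664-fold and 1.44-fold for KO AAV over KO saline, and between 0.678-fold and 1.63-fold for KO AAV over WT saline. Of the 8 genes 5 had a log2 change above 0 in KO saline over WT saline (50.9% of all tested genes did), 3 in KO AAV over KO saline (47.6%) and 5 in KO AAV over WT saline (49.0%). Their median log2 change was 0.05, -0.07 and 0.05 in those comparisons, beside a median over all tested genes of 0.00, -0.01 and -0.01. In whole tissue, fewer cells of a type and less RNA per cell cannot be told apart.

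**Figure D1:**
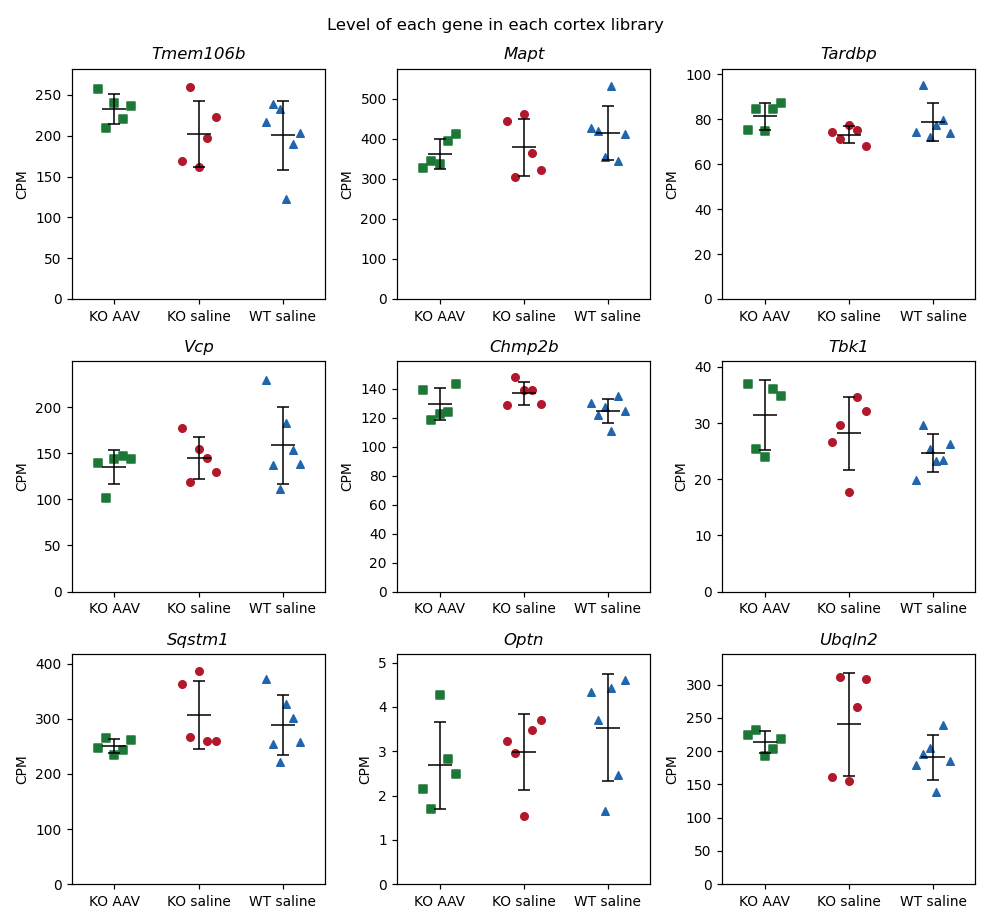
Level of each of the 9 genes in every cortex library, in CPM on a linear axis from 0, with points for animals and bars for the mean and SD of each group (KO AAV n = 5, KO saline n = 5, WT saline n = 6). The groups overlap in every panel, and the KO AAV libraries of Ubqln2 lie between 192 and 232 CPM, inside the range of the KO saline libraries.

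Tmem106b (ENSMUSG00000029571, chromosome 6, 13069759 to 13089269, plus strand, GRCm38) encodes the lysosomal membrane protein. It stood at 257, 209, 240.3, 219.9 and 237 CPM in the 5 KO AAV libraries (replicates 1 to 5) and at 169, 259, 162, 197 and 222 CPM in the 5 KO saline libraries. In WT saline its lowest, median and highest levels were 122, 210.0 and 238 CPM. The KO AAV libraries were all above the KO saline median. KO saline replicates 1 and 3 and WT saline replicate 4 were the lowest, and the groups overlapped. The group means were 233 ± 18.6 CPM in KO AAV, 202 ± 40.0 CPM in KO saline and 201 ± 42.5 CPM in WT saline (SD). The fitted log2 change was 0.01 (SE 0.15, edgeR adjusted p = 0.996) in KO saline over WT saline, 0.20 (SE 0.16, adjusted p = 1.00) in KO AAV over KO saline and 0.21 (SE 0.15, adjusted p = 0.881) in KO AAV over WT saline. The order of the group means, from the highest down, was KO AAV, KO saline and WT saline, and no difference between neighbours in that order passed the test.

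Mapt (ENSMUSG00000018411, chromosome 11, 104231390 to 104332090, plus strand) encodes tau, a neuronal protein that binds microtubules, and lies 1.79 Mb from Grn on the same chromosome. Its levels were 327, 345, 336, 395 and 411 CPM in the KO AAV group and 444, 304, 463, 365 and 321 CPM in KO saline, with a lowest, median and highest level of 344, 415 and 532 CPM in WT saline. KO saline replicates 1 and 3 and WT saline replicate 4, the libraries lowest for Tmem106b, were the highest for Mapt. Group means were 363 ± 37.7 CPM in KO AAV, 379 ± 71.5 CPM in KO saline and 414 ± 67.2 CPM in WT saline. The fitted log2 changes were -0.13 (SE 0.13, edgeR adjusted p = 0.994) in KO saline over WT saline, -0.06 (SE 0.14, adjusted p = 1.00) in KO AAV over KO saline and -0.19 (SE 0.13, adjusted p = 0.881) in KO AAV over WT saline.

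Tardbp (ENSMUSG00000041459, chromosome 4, 148612382 to 148627019, minus strand) encodes TDP-43, which regulates splicing and keeps its own transcript level in check. It was among the steadiest of the 9 transcripts, at 75.0, 84.7, 74.8, 84.6 and 87.2 CPM in KO AAV, at 74.2, 71.1, 77.2, 75.2 and 67.9 CPM in KO saline, and at 71.9, 75.9 and 95.4 CPM in WT saline (lowest, median and highest). In KO AAV, 3 of 5 libraries were above every KO saline library, and none was above every WT saline library. The group means were 81.3 ± 5.93 CPM in KO AAV, 73.1 ± 3.64 CPM in KO saline and 78.8 ± 8.57 CPM in WT saline. These gave log2 changes of -0.11 (SE 0.11, edgeR adjusted p = 0.994) in KO saline over WT saline, 0.15 (SE 0.11, adjusted p = 1.00) in KO AAV over KO saline and 0.04 (SE 0.11, adjusted p = 0.944) in KO AAV over WT saline. The coefficient of variation of Tardbp over the 16 libraries was 8.999%, against 8.82% from counting error alone at its counts of 92 to 180 per library.

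Sqstm1 (ENSMUSG00000015837, chromosome 11, 50199366 to 50210827, minus strand, 52.2 Mb from Grn) encodes p62, a receptor that binds ubiquitinated cargo and hands it to the autophagosome. Among the 8 tested genes it had the largest fitted difference between the knockout groups: 246, 266, 235, 242 and 262 CPM in KO AAV against 363, 267, 386, 260.5 and 259 CPM in KO saline. The lowest, median and highest levels in WT saline were 221, 279.8 and 372 CPM. In KO saline, replicates 1 and 3 were at least 363 CPM and the other 3 lay within 259 to 267 CPM, as did KO AAV replicates 2 and 5. The means were 250.2 ± 13.0 CPM in KO AAV, 307 ± 62.1 CPM in KO saline and 289 ± 55.0 CPM in WT saline. KO AAV over KO saline gave a log2 change of -0.29 (SE 0.14, 95% interval -0.59 to 0.00, unadjusted p = 0.0515, edgeR adjusted p = 1.00), KO saline over WT saline 0.09 (SE 0.14, adjusted p = 0.994) and KO AAV over WT saline -0.21 (SE 0.14, adjusted p = 0.881). The first of these had an unadjusted p under 0.05 when KO saline replicate 2, 4 or 5 or WT saline replicate 1 or 3 was left out (log2 changes of -0.28 to -0.35, adjusted p of at least 0.994). It was smaller without either of the 2 KO saline libraries that were highest for Sqstm1, at -0.21 without replicate 1 (unadjusted p = 0.152) and -0.19 without replicate 3 (unadjusted p = 0.191).

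Tbk1 (ENSMUSG00000020115, chromosome 10, 121546455 to 121586787, minus strand) encodes the kinase that switches autophagy receptors on and that also drives the interferon response. It was counted 23 to 69 times per library: 36.9, 25.4, 24.03, 36.1 and 34.9 CPM in the KO AAV group, 26.6, 29.6, 17.8, 34.7 and 32.1 CPM in KO saline, and 19.8, 24.4 and 29.7 CPM in WT saline (lowest, median and highest). In KO AAV, 3 of 5 libraries were above every WT saline library and the other 2 lay inside the WT saline range. In KO saline, 2 of 5 were above it and replicate 3 was below it. Means were 31.5 ± 6.22 CPM in KO AAV, 28.2 ± 6.55 CPM in KO saline and 24.6 ± 3.33 CPM in WT saline. They gave log2 changes of 0.20 (SE 0.18, edgeR adjusted p = 0.994) in KO saline over WT saline, 0.15 (SE 0.18, adjusted p = 1.00) in KO AAV over KO saline and 0.35 (SE 0.17, 95% interval -0.01 to 0.70, unadjusted p = 0.0554, adjusted p = 0.881) in KO AAV over WT saline. The last of these was 0.35 to 0.43 at an unadjusted p of 0.0233 to 0.0353 when KO AAV replicate 2 or 3, KO saline replicate 3 or WT saline replicate 2 was left out (adjusted p of at least 0.833). It was 0.28 to 0.31 at an unadjusted p of 0.111 to 0.144 when KO AAV replicate 1, 4 or 5 or WT saline replicate 1 was left out.

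Optn (ENSMUSG00000026672, chromosome 2, 5020642 to 5064051, minus strand) encodes optineurin, the receptor that TBK1 phosphorylates on damaged mitochondria. With 2 to 10 counts per library it was too sparse for the fit. Its levels were 2.14, 1.69, 4.27, 2.82 and 2.49 CPM in the KO AAV group and 3.23, 2.96, 1.54, 3.47 and 3.71 CPM in KO saline, against a lowest, median and highest level of 1.66, 4.02 and 4.62 CPM in WT saline. The groups overlapped, and their means were 2.68 ± 0.981 CPM in KO AAV, 2.98 ± 0.850 CPM in KO saline and 3.54 ± 1.21 CPM in WT saline. Two-sided exact permutation tests of the CPM gave p = 0.394 for KO saline over WT saline, 0.619 for KO AAV over KO saline and 0.247 for KO AAV over WT saline. Its coefficient of variation over the libraries was 33.5%, below the 46.3% that counting error alone gives at these counts, so differences between animals were not detectable at this depth.

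Vcp (ENSMUSG00000028452, chromosome 4, 42979963 to 43000507, minus strand) encodes the segregase ATPase also called p97. KO AAV libraries had 139, 102, 144, 147 and 143 CPM, KO saline libraries 177, 119, 154, 145 and 129.7 CPM, and WT saline libraries 111, 146 and 229 CPM (lowest, median and highest). KO AAV replicate 2 was apart from the other 4 of its group, and WT saline replicate 1 was the highest of all 16. Means were 135 ± 18.8 CPM in KO AAV, 145 ± 22.8 CPM in KO saline and 159 ± 41.8 CPM in WT saline. The fitted log2 changes were -0.13 (SE 0.16, edgeR adjusted p = 0.994) in KO saline over WT saline, -0.10 (SE 0.17, adjusted p = 1.00) in KO AAV over KO saline and -0.23 (SE 0.16, adjusted p = 0.881) in KO AAV over WT saline.

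Ubqln2 (ENSMUSG00000050148, chromosome X, 153498227 to 153501570, plus strand) encodes ubiquilin 2 and varied most of the 8 tested genes. Its levels were 225, 232, 192, 203 and 218 CPM in the KO AAV group and 161, 311, 154, 266 and 309 CPM in KO saline, and its lowest, median and highest levels in WT saline were 138, 190.4 and 239 CPM. KO saline split into 3 libraries above every WT saline library (replicates 2, 4 and 5) and 2 between the lowest and the second-lowest WT saline library (replicates 1 and 3), and every KO AAV library lay inside the WT saline range. The means were 214 ± 16.1 CPM in KO AAV, 240.4 ± 77.5 CPM in KO saline and 191 ± 33.1 CPM in WT saline. These gave log2 changes of 0.34 (SE 0.17, 95% interval -0.01 to 0.69, unadjusted p = 0.059, edgeR adjusted p = 0.994) in KO saline over WT saline, -0.17 (SE 0.18, adjusted p = 1.00) in KO AAV over KO saline and 0.17 (SE 0.17, adjusted p = 0.888) in KO AAV over WT saline. Without KO saline replicate 1 the first of these was 0.45 (unadjusted p = 0.0137, adjusted p = 0.719), and without KO saline replicate 3 it was 0.46 (unadjusted p = 0.00869, adjusted p = 0.650). Without WT saline replicate 5 it was 0.41 (unadjusted p = 0.0271, adjusted p = 0.777). It was smaller when each of the other 3 KO saline libraries was left out, at 0.23 without replicate 2, 0.30 without replicate 4 and 0.23 without replicate 5, and at 0.26 without WT saline replicate 4 (unadjusted p of 0.120 to 0.200). The gene is X-linked, and its level was 212 ± 48.3 CPM in the 10 males and 215 ± 57.1 CPM in the 6 females (SD over all groups). The sexes were not evenly spread over the groups. In KO saline over WT saline its log2 change was 0.20 in males alone (edgeR unadjusted p = 0.352). With sex as a term it was 0.36 (unadjusted p = 0.0552).

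Chmp2b (ENSMUSG00000004843, chromosome 16, 65539128 to 65562726, minus strand) encodes the ESCRT-III subunit. The gene stood at 139, 119, 123, 124 and 143 CPM in KO AAV and at 129, 148, 139, 139 and 129.7 CPM in KO saline. In WT saline the lowest, median and highest were 111, 126 and 135 CPM. In KO saline, 3 of 5 libraries were above every WT saline library and the other 2 were inside the WT saline range. Means were 129.6 ± 10.9 CPM in KO AAV, 137 ± 7.90 CPM in KO saline and 125 ± 8.32 CPM in WT saline. The log2 change was 0.13 (SE 0.10, edgeR adjusted p = 0.994) in KO saline over WT saline, -0.08 (SE 0.10, adjusted p = 1.00) in KO AAV over KO saline and 0.05 (SE 0.10, adjusted p = 0.928) in KO AAV over WT saline. Chmp2b had the narrowest spread of the 9, a coefficient of variation of 7.60% over all libraries against 6.80% from counting error.

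**Figure D2:**
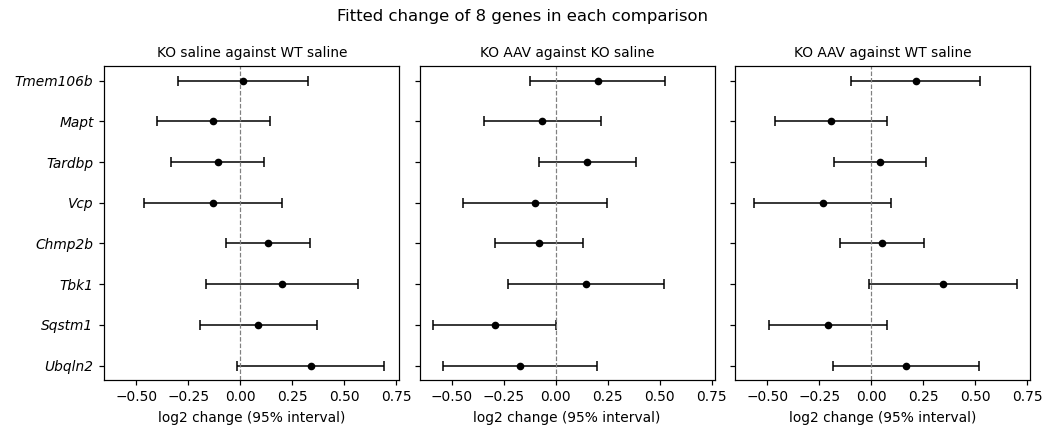
Fitted log2 change (edgeR) of the 8 tested genes, with bars for the 95% interval, in KO saline over WT saline, KO AAV over KO saline and KO AAV over WT saline; the dashed line marks no change. The 3 points farthest from 0 are Ubqln2 in KO saline over WT saline (0.34), Sqstm1 in KO AAV over KO saline (-0.29) and Tbk1 in KO AAV over WT saline (0.35), and each of their intervals reaches 0.

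From the highest group mean down, Tbk1 had the same order of groups as Tmem106b, while Mapt, Vcp and Optn had WT saline, KO saline, KO AAV. Ubqln2 and Chmp2b had KO saline, KO AAV, WT saline, Sqstm1 had KO saline, WT saline, KO AAV, and Tardbp had KO AAV, WT saline, KO saline. No difference between neighbours in these orders passed a test.

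Tardbp and Chmp2b spread little more than counting error allows, while 5 genes spread well beyond it. The coefficient of variation over the 16 libraries, followed by the part that counting error gives, was 23.4% and 5.41% for Ubqln2, 20.6% and 6.47% for Vcp, 18.2% and 4.64% for Sqstm1, 17.4% and 5.41% for Tmem106b and 15.8% and 3.97% for Mapt. Tbk1 stood between, at 20.9% and 15.0%. Within groups the coefficient of variation was smaller in KO AAV than in KO saline for 6 of the 9 genes and larger for 3. The widest gaps were 7.54% in KO AAV against 32.2% in KO saline for Ubqln2, 5.19% in KO AAV against 20.2% in KO saline for Sqstm1, and 8.01% in KO AAV against 19.8% in KO saline for Tmem106b. The 3 with the larger value in KO AAV were Tardbp (7.30% in KO AAV against 4.98% in KO saline), Chmp2b (8.42% in KO AAV against 5.76% in KO saline) and Optn (36.5% in KO AAV against 28.5% in KO saline). These differences in spread were not tested.

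The levels of some of the genes went together over the libraries. Among the 28 pairs of the 8 tested genes, 8 had a Pearson correlation of log2 CPM over the 16 libraries with an adjusted permutation p under 0.05, 4 positive and 4 negative. These are the 8 pairs with an r of at least 0.6 in size, 28.6% of the 28. Such pairs are common in these libraries: they made up 7.9% of all pairs of tested genes and 12.3% of the pairs of tested genes at 20 CPM or more on average. The members were not tested against these shares. Apart from Tbk1 they averaged 77.8 to 387 CPM, and no share was computed for pairs of genes at such levels. Mapt and Ubqln2, tau and ubiquilin 2, were opposed most closely (r = -0.87, adjusted p = 0.00056; Spearman rho = -0.84, adjusted p = 0.00532). Within groups, taken as deviations from the group mean, that r was -0.87, and without the 2 libraries farthest from the median Mapt level it was -0.78. It was the single pair that passed by rank correlation as well. Both genes also followed the GC slope of the libraries (r = 0.92 for Mapt and -0.91 for Ubqln2). The pair was not tested apart from that slope.

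Mapt, Vcp and Sqstm1 went together: r was 0.71 for Vcp with Sqstm1 (adjusted p = 0.0139, rho = 0.56, adjusted p = 0.102), 0.64 for Mapt with Vcp (adjusted p = 0.0306, rho = 0.64, adjusted p = 0.0735) and 0.62 for Mapt with Sqstm1 (adjusted p = 0.0355, rho = 0.49, adjusted p = 0.148). Without the 2 libraries farthest from the median of the first gene, these were 0.72, 0.54 and 0.65. Within groups they were 0.74, 0.59 and 0.66.

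Tmem106b was negatively correlated with 2 of that trio and positively with Ubqln2, and its r of -0.47 with Vcp did not pass (adjusted p = 0.145). Its r was -0.75 with Mapt (adjusted p = 0.00868, rho = -0.64, adjusted p = 0.0735), -0.66 with Sqstm1 (adjusted p = 0.0306, rho = -0.62, adjusted p = 0.0735) and 0.64 with Ubqln2 (adjusted p = 0.0306, rho = 0.48, adjusted p = 0.148), with within-group values of -0.75, -0.60 and 0.71. Without the 2 libraries farthest from the median Tmem106b level these were -0.47, -0.59 and 0.33, so the relations with Mapt and Ubqln2 rest in large part on those libraries. Tbk1 and Sqstm1, genes of the kinase and of an autophagy receptor that it phosphorylates, were opposed (r = -0.66, adjusted p = 0.0306). Their rho was -0.54 (adjusted p = 0.117), and r was -0.65 within groups and -0.51 without the 2 farthest libraries. Tardbp and Chmp2b entered none of the 8 pairs.

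**Figure D3:**
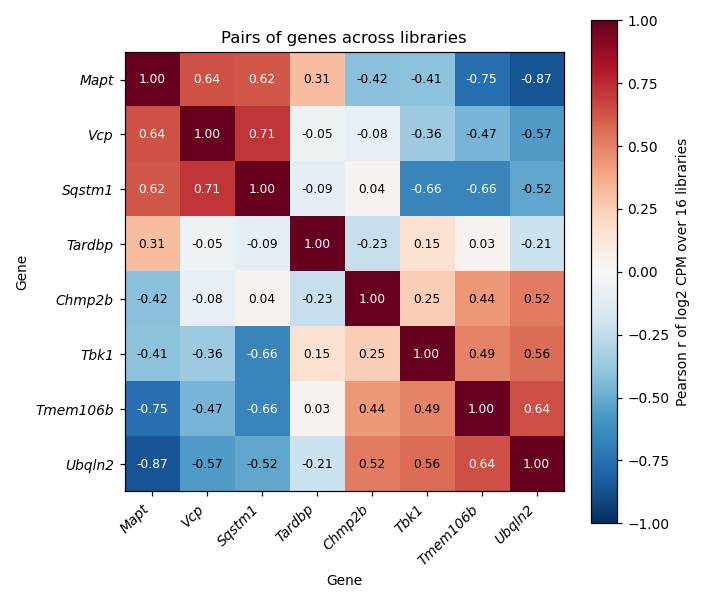
Pearson r of log2 CPM between the 8 tested genes over the 16 libraries, with red for positive and blue for negative values. Mapt, Vcp and Sqstm1 form a positive block (0.62 to 0.71), Tmem106b and Ubqln2 have negative r with it (-0.87 to -0.47), and Tardbp lies between -0.23 and 0.31 with every gene.

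The genes were next set against the GC slope of the libraries, which was computed over all tested genes, these 8 among them. Over the 16 libraries the GC slope correlated with Mapt at r = 0.92 (adjusted p = 0.00012 over 24 relations; rho = 0.89, adjusted p = 0.00036) and with Ubqln2 at r = -0.91 (adjusted p = 0.00012; rho = -0.92, adjusted p = 0.00024). The unadjusted permutation p of both Pearson values was 1e-05, the smallest that 100000 permutations can give. With Tmem106b the r was -0.74 (adjusted p = 0.00544; rho = -0.62, adjusted p = 0.0503). Within groups the 3 values were 0.91, -0.93 and -0.73, and without the 2 libraries farthest from the median slope they were 0.87, -0.85 and -0.49. These 3 genes were also correlated with each other, and whether those pair relations hold apart from the slope was not tested.

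The other 5 genes did not pass: r with the GC slope was 0.59 for Vcp, -0.59 for Tbk1, 0.57 for Sqstm1, -0.51 for Chmp2b and 0.18 for Tardbp (adjusted p of 0.0621, 0.0621, 0.0633, 0.115 and 0.631). The relation is common in these libraries: 20.1% of the 10354 tested genes with an annotated transcript had an r of at least 0.7 in size, as 3 of the 8 genes did. The slope also followed the main axis of variation, the first principal component, which held 33.9% of the variance (r = 0.95 over 16 libraries, a description). For Mapt and Ubqln2 the relation was among the closest: 0.715% and 1.40% of tested genes had an r at least as large in size as theirs.

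By the GC content of their own last 500 bases the genes ran from 31.8% for Ubqln2 and 32.0% for Chmp2b, over 36.6% for Tmem106b, 37.0% for Tbk1, 42.0% for Tardbp, 43.0% for Vcp, 44.8% for Mapt and 46.2% for Optn, up to 51.4% for Sqstm1, beside a median of 42.6% over tested genes. The r with the slope was 0.92 for Mapt and 0.57 for Sqstm1, the gene with the highest GC content, and the difference between these values was not tested. What sets the slope of a library was not tested.

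**Figure D4:**
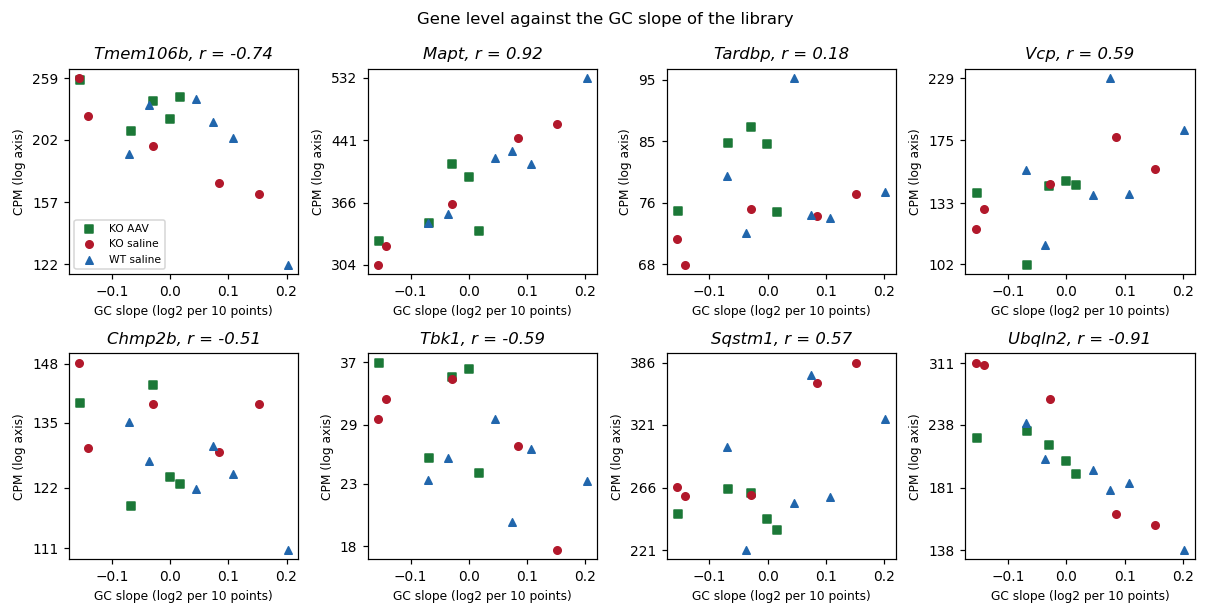
Level of the 8 tested genes in each library (CPM, log axis) against the GC slope of that library (log2 per 10 percentage points of GC in the last 500 transcript bases); green squares are KO AAV, red circles KO saline and blue triangles WT saline. Over the 16 libraries Mapt is higher (r = 0.92) and Ubqln2 lower (r = -0.91) at a higher slope, and Tardbp follows it little (r = 0.18).

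With the GC slope as a term of the edgeR fit, a setting chosen after these relations were seen, no gene of the 8 passed either, and some values moved. In the order KO saline over WT saline, KO AAV over KO saline and KO AAV over WT saline, the log2 changes of Ubqln2 were 0.09, -0.20 and -0.11 in place of 0.34, -0.17 and 0.17, and its lowest unadjusted p moved to KO AAV over KO saline (0.0521). For Mapt they were 0.01, 0.01 and 0.02 in place of -0.13, -0.06 and -0.19, and for Tmem106b -0.14, 0.17 and 0.03 in place of 0.01, 0.20 and 0.21. Those of Sqstm1 were 0.17, -0.24 and -0.07 in place of 0.09, -0.29 and -0.21, with an unadjusted p of 0.0518 for the second. Those of Vcp were -0.03, -0.05 and -0.08 in place of -0.13, -0.10 and -0.23, and those of Tbk1 were 0.09, 0.12 and 0.21 in place of 0.20, 0.15 and 0.35. The values of Tardbp and Chmp2b moved by less than 0.05. The GC slope itself did not pass between groups by two-sided exact permutation tests (p = 0.325 for KO saline over WT saline, then 0.698 for KO AAV over KO saline and 0.0909 for KO AAV over WT saline).

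Library size and mitochondrial share gave weaker relations in the same family of 24. Sqstm1 had a negative r with the total count (r = -0.61, adjusted p = 0.0621; rho = -0.67, adjusted p = 0.0424), with an r of -0.66 within groups. Without the 2 libraries farthest from the median total, r was -0.28 and rho was -0.53. Chmp2b had r = -0.58 with the total count (adjusted p = 0.0633; rho = -0.64, adjusted p = 0.0503). No relation with the mitochondrial share of counts, which ran from 20.4% to 29.8%, passed.

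Over the libraries the level of Sqstm1 had a positive r with that of Vcp (0.71) and a negative r with that of Tmem106b (-0.66). Neither pair passed by rank correlation. For these 3 genes the 250 bases before the annotated start are printed here, as RefSeq gives them for GRCm38.p6. They run 5′ to 3′ on the strand of the gene. Capitals mark matches, on either strand, to 1 of 3 motifs that were searched: CACGTG, the E-box core bound by TFEB, which drives lysosome and autophagy genes; TGACNNNGC, the core of the antioxidant response element bound by NRF2; and GGGCGG, the GC box bound by SP1. Matches to the first and second motif may overlap, and none did here.
Sqstm1, chr11:50210821-50211070, minus strand: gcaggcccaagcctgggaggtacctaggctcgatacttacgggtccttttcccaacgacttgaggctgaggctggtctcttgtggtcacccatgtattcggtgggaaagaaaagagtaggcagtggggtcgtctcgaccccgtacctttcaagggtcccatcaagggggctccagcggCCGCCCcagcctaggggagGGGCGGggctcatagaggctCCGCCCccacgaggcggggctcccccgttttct
Vcp, chr4:43000508-43000757, minus strand: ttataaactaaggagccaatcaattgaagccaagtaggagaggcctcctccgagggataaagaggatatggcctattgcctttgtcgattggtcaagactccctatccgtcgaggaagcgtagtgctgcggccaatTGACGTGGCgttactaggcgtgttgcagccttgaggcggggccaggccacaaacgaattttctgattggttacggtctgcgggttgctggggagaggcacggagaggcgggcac
Tmem106b, chr6:13069509-13069758, plus strand: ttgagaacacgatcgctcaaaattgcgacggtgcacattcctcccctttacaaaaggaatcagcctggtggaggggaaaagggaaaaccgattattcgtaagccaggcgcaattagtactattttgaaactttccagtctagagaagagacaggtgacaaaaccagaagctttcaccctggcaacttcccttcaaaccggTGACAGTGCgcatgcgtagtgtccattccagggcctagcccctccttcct
The Sqstm1 window held 3 GC boxes and neither of the other motifs, and its GC content was 63.2%. The Vcp and Tmem106b windows each held 1 TGACNNNGC match, at 114 and 50 bases before the start, and no GC box, with GC contents of 54.8% and 49.2%. Of the 9 genes, 7 had a promoter sequence in the table used, and Mapt and Ubqln2 did not. Among those 7, CACGTG was found in 0, TGACNNNGC in 2 and GGGCGG in 4 (Tardbp, Tbk1, Sqstm1 and Optn), beside 6.05%, 10.1% and 32.9% of all 27025 promoter windows of the same length. The letters in these windows are a description and say nothing of binding in these animals.

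The genes whose pattern over the 16 libraries was most like that of each gene were found by Pearson r of log2 CPM among 6216 tested genes of at least 20 CPM on average, as a description with no p. For Ubqln2 they were Copb1 (r = 0.97), Papss1 (0.96) and Socs5 (0.96), and for Mapt they were Gabarapl1 (0.97), Oaz2 (0.97) and Epb41l1 (0.96). For Sqstm1 they were Mapk10 (0.91), Mtmr9 (0.88) and Cdk5r1 (0.88), and for Tmem106b they were Vkorc1l1 (0.93), Olig1 (0.92) and Coq2 (0.90). The nearest genes followed Ubqln2 and Mapt more closely than any gene followed the 4 that remain. Vcp was closest to Sh3bp5 (0.88), Hspa4 (0.87) and Timm9 (0.87), and Tbk1 to Tab2 (0.87), Wdr17 (0.85) and Pole4 (0.85). Chmp2b had Cd33 (0.77), Rnf4 (0.76) and Atp6v1h (0.75) at the top and Tardbp had Cdadc1 (0.74), Ngef (0.73) and Apoo (0.71). The number of genes with an r of at least 0.7 differed widely: 864 for Ubqln2 and 722 for Mapt, but 8 for Chmp2b and 5 for Tardbp.

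Partners of the 9 genes were read from 9 lists (145 genes, of which 130 were tested), to see whether the pathways around them moved. No list gene passed the adjusted threshold in any comparison. At an unadjusted p under 0.05 there were 8 in KO saline over WT saline (6 higher, 2 lower; 6.15% of the 130, beside 4.11% of all tested genes), 4 in KO AAV over KO saline (all lower; 3.08% beside 2.49%) and 5 in KO AAV over WT saline (2 higher, 3 lower; 3.85% beside 4.02%). The values below are therefore levels and fitted differences of genes that did not pass. In the ubiquilin and TDP-43 lists no gene had an unadjusted edgeR p under 0.05 in any comparison. The same held for the VCP, TBK1 and TMEM106 lists in KO AAV over KO saline. In KO AAV over WT saline it held for the autophagy, ESCRT-III, TBK1 and TMEM106 lists.

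Around Sqstm1 and Optn, the list of autophagy receptors and core machinery had 23 tested genes, with median log2 changes of -0.07 in KO saline over WT saline, -0.05 in KO AAV over KO saline and -0.12 in KO AAV over WT saline. The gene of lowest p in KO saline over WT saline was Nfe2l2, the transcription factor NRF2 that p62 activates through KEAP1 (34.5 ± 9.997 CPM in KO saline and 24.1 ± 3.84 CPM in WT saline, log2 change 0.52). In KO AAV over KO saline it was the kinase gene Ulk2 (189 ± 12.4 CPM in the KO AAV group and 230.1 ± 26.5 CPM in KO saline, -0.28), and in KO AAV over WT saline Map1lc3b, which encodes the membrane anchor LC3B (365 ± 32.8 CPM in the KO AAV group and 437 ± 69.6 CPM in WT saline, -0.26). Of the TBK1 adaptors and pathway, 6 genes were tested, with medians of 0.21, -0.09 and -0.03 in the same order. The adaptor gene Tank stood at 40.8 ± 10.1 CPM in KO saline and 31.1 ± 7.46 CPM in WT saline (0.40). The fitted log2 change was -0.49 for the adaptor gene Tbkbp1 in KO AAV over KO saline. For the small GTPase gene Rab8a it was -0.25 in KO AAV over WT saline. Neither had an unadjusted edgeR p under 0.05.

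The VCP cofactors (18 tested) had medians of 0.02, 0.02 and 0.10. Their lowest p belonged to Ubxn2a, an adaptor of VCP (35.3 ± 5.61 CPM in KO saline and 25.4 ± 4.46 CPM in WT saline, 0.47), and to the adaptor gene Faf2 in KO AAV over KO saline (0.30). In KO AAV over WT saline it belonged to Plaa, a ubiquitin-binding cofactor (28.8 ± 4.72 CPM in the KO AAV group and 21.9 ± 3.11 CPM in WT saline, 0.39). The ubiquilins and proteasome shuttles (11 tested) had medians of -0.03, -0.05 and -0.11. Bag6, a chaperone of unassembled membrane proteins, was the lowest by p in the first 2 comparisons (55.0 ± 9.65 CPM in KO saline and 44.8 ± 5.20 CPM in WT saline, 0.29; -0.24 in KO AAV over KO saline), and the ubiquitin-activating enzyme gene Uba1 in KO AAV over WT saline (-0.18).

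The ESCRT-III subunits and partners (13 tested) had medians of 0.05, -0.01 and -0.05. Pdcd6ip, which encodes the ESCRT adaptor ALIX, was lowest by p in KO saline over WT saline (77.2 ± 15.98 CPM in KO saline and 63.5 ± 4.99 CPM in WT saline, 0.28). It was so too in KO AAV over KO saline (63.2 ± 4.69 CPM in KO AAV, -0.29), and these 2 comparisons share the KO saline libraries. The subunit gene Chmp1a was lowest by p in KO AAV over WT saline (-0.35). Around Tmem106b, the family and lysosome partners (9 tested) had medians of -0.05, -0.07 and -0.06. Lamp2, a lysosomal membrane protein, stood at 191 ± 25.7 CPM in KO saline and 146 ± 21.6 CPM in WT saline (0.39). The lysosomal protease gene Ctsd stood at 145 ± 18.9 CPM in the KO AAV group and 174 ± 21.9 CPM in KO saline (-0.26), and Map6, a microtubule-stabilising protein, differed by -0.30 in KO AAV over WT saline.

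The RNA-binding proteins related to TDP-43 (19 tested) had medians of 0.05, -0.06 and 0.05, with Hnrnpk lowest by p in KO saline over WT saline (0.23) and Tial1 in KO AAV over KO saline (-0.28). The microtubule-associated proteins and tau kinases (19 tested) had medians of -0.01, -0.09 and -0.06. Stmn1, a microtubule-destabilising protein, had the lowest p of that list in both comparisons with WT saline, at 6.32 ± 0.469 CPM in KO AAV, 5.27 ± 1.55 CPM in KO saline and 9.46 ± 3.17 CPM in WT saline. The fitted log2 changes were -0.59 in KO AAV and -0.85 in KO saline. The 2 comparisons share the WT saline libraries. The group means of Stmn1 lie between those of Optn and Tbk1, the genes most limited by depth, so these changes rest on few counts. Cdk5r1, the activator of the tau kinase CDK5, stood at 731 ± 42.5 CPM in the KO AAV group and 928 ± 185 CPM in KO saline (-0.34). The further ALS and FTD genes (18 tested) had medians of -0.01, -0.03 and -0.05, with lowest p for the dynactin gene Dctn1 in KO saline over WT saline (-0.36) and for the tubulin gene Tuba4a in KO AAV over WT saline (-0.41).

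**Figure D5:**
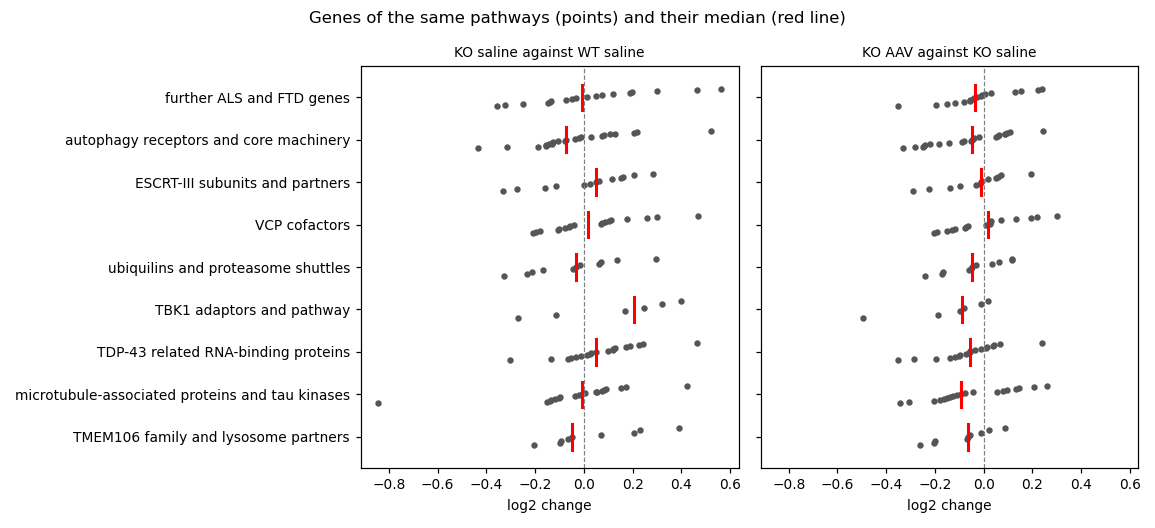
Log2 change of each tested gene of the 9 lists (grey points) and the median of each list (red line), in KO saline over WT saline and in KO AAV over KO saline. The medians lie close to 0 except that of the 6 tested genes of the TBK1 pathway, at 0.21 in KO saline over WT saline, and no point passed the adjusted threshold.

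Cell type markers were read beside these values. Of the 7 astrocyte markers, Gfap, the intermediate filament gene, passed: it was higher in KO saline (71.0 ± 15.5 CPM) than in WT saline (21.3 ± 6.17 CPM; log2 change 1.73, edgeR adjusted p = 3.86e-05). It was lower in KO AAV (30.7 ± 3.49 CPM) than in KO saline (log2 change -1.21, adjusted p = 0.0086), and the other 6 did not pass. The second of these calls was lost with limma on the deposited CPM (adjusted p = 0.0824), in males alone (0.133) and without the 2 libraries of RNA integrity number 8 (0.0647), and also without KO AAV replicate 1 (0.0532), KO AAV replicate 3 (0.0700) or KO saline replicate 4 (0.0592). Its log2 change ran from -1.10 to -1.32 over all settings. In KO AAV over WT saline the log2 change of Gfap was 0.52 (edgeR unadjusted p = 0.0132, adjusted p = 0.881). Summed over the 7, astrocyte markers were at 8665 to 10222 CPM in KO AAV, 9112 to 11498 CPM in KO saline and 8892 to 10564 CPM in WT saline. Gfap, with group means of 21.3 to 71.0 CPM, is a small part of these sums, so they do not measure its change. None of the 8 microglial markers passed. At an unadjusted edgeR p under 0.05, 3 were higher in KO saline over WT saline, beside 4.11% of all tested genes at such a p. In KO AAV over KO saline 2 were lower, beside 2.49%, and these 2 comparisons share the KO saline libraries. In KO AAV over WT saline there were 0. The sum of the 8 was 402 to 483 CPM in KO AAV, 412 to 579 CPM in KO saline and 374 to 454 CPM in WT saline.

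No marker of neurons, oligodendrocytes, oligodendrocyte precursors, endothelium and mural cells, other brain regions, choroid plexus and ependyma, or blood passed in any comparison. At an unadjusted edgeR p under 0.05 in KO AAV over WT saline, 2 of 10 neuronal markers were lower and 2 of 5 tested precursor markers were higher. The share of all tested genes was 4.02%. In KO saline over WT saline 1 of 7 tested endothelial and mural markers was lower, beside 4.11%. The sum of the oligodendrocyte precursor markers lay at 285 to 348 CPM in KO AAV, 186 to 299.6 CPM in KO saline and 148 to 283 CPM in WT saline, so that KO AAV and WT saline did not overlap. Of single tested genes 0.318% did not overlap in that comparison, and the sum was not tested. For the other lists the ranges of all groups overlapped. Oligodendrocyte markers were at 4046 to 6548 CPM in KO AAV, 4064 to 5651 CPM in KO saline and 3648 to 6199 CPM in WT saline, and endothelial and mural markers at 389 to 427 CPM in KO AAV, 356 to 401 CPM in KO saline and 321 to 390.5 CPM in WT saline. Markers of striatum, thalamus and hippocampus were at 249.5 to 590.0 CPM in KO AAV, 287 to 486 CPM in KO saline and 262 to 752 CPM in WT saline, and choroid plexus and ependymal markers at 8.10 to 18.1 CPM in KO AAV, 9.88 to 29.5 CPM in KO saline and 6.65 to 17.2 CPM in WT saline. Blood markers, from haemoglobin and Alas2 transcripts, were at 155 to 566 CPM in KO AAV, 45.1 to 724 CPM in KO saline and 138 to 459.9 CPM in WT saline. No list had a marker at 0 in all libraries, and the part of any of these differences in the levels of the 9 genes was not tested.

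Some counts could include reads of a neighbour. At their 3′ ends Tardbp, Vcp and Sqstm1 overlap a gene on the opposite strand (Masp2, 1700022I11Rik and Mrnip), and whether reads were counted by strand is not given in the sources used. Masp2 and 1700022I11Rik had 0 counts in all libraries. Mrnip had 78 counts over all libraries and Sqstm1 had 7520.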

How the data were processed

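The report rests on polyadenylated RNA from the cortex of 16 mice, made into QuantSeq 3' libraries with unique molecular identifiers to remove PCR duplicates, per the labels' protocols. Per the submitters' processing notes, the reads were aligned to genome build GRCm38.p6 with tools that include STAR, FastQC 0.11.5, MultiQC 1.0, edgeR 3.40.2 and R 4.2; which program counted reads, by which strand and annotation, is not given in these sources. The authors deposited raw counts per gene, on which all tests ran unless stated. The deposited counts carry no more than 2 significant digits: those of 100 or more are rounded, by at most 5%, as were all 16 counts of 6 of the members and 14 of those of Tardbp. A signal table of CPM, deposited by the authors, served in 1 alternative. The deposited normalization factors are ratios that scale each library size. Other deposited columns give library sizes, sex and treatment duration, and ages and RNA integrity numbers come from the labels.

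Genes were filtered with filterByExpr (minimum count 10), scaled with TMM, and fitted once with the quasi-likelihood method of edgeR, group being the factor (edgeR 4.0.16, R 4.3.3, limma 3.58.1, DESeq2 1.42.0, Python 3.11.15, scipy 1.17.1), with Benjamini-Hochberg adjustment over 10363 genes. The common biological coefficient of variation was 0.181. Log2 CPM in correlations carry a prior count of 2, and their permutation p-values come from 100000 permutations. Positions and GC content are from GENCODE M21, and promoters from RefSeq.

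The 9 genes, the lists and the tests were chosen with earlier results of these data known. Named genes are the 9, in each list the genes called or else that of lowest p in each comparison, and for each member the 3 genes of most similar pattern. Of the list genes, Sting1 was not analysed here. A list gene that this rule also names is not reported here. Total counts of 1351974 to 2119019 per library give a single gene of Tbk1's level (23 to 69 counts) a counting error of 15.0%. The alternatives changed the scaling, the filter, the tool (DESeq2, limma-voom, and limma on the deposited CPM with a pseudocount of 0.25), the covariates (a replicate block among them) and the libraries used.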

Additional observations from a re-analysis of the deposited data

Results flagged for a closer look

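In 2 of the 27 sets of levels looked at (9 genes in 3 groups), 1 library lay far from the others of its group by Dixon's test at its 95% critical value, which chance alone gives in about 1 in 20 sets. Tardbp was highest in WT saline replicate 2, at 95.4 CPM, where the other 5 WT saline libraries lay between 71.9 and 79.8 CPM. Without that library its log2 change was -0.05 in place of -0.11 in KO saline over WT saline and 0.11 in place of 0.04 in KO AAV over WT saline. Vcp was lowest in KO AAV replicate 2, at 102 CPM, where the other 4 KO AAV libraries lay between 139 and 147 CPM. Without that library its log2 change was -0.01 in place of -0.10 in KO AAV over KO saline and -0.15 in place of -0.23 in KO AAV over WT saline.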

How the results depend on the processing

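None of the 8 tested genes passed the adjusted threshold under any of 13 alternatives or with any of the 16 libraries left out; the lowest adjusted p was 0.731 over the alternatives and 0.650 with a library left out. Some alternatives gave an unadjusted p under 0.05. For Sqstm1 in KO AAV over KO saline it was 0.0483 with a mean CPM of at least 5 (edgeR). It was 0.0416 with only the 2 groups compared and 0.0240 without the 2 libraries of RNA integrity number 8. For Ubqln2 in KO saline over WT saline it was 0.0227 with no count filter. For Tbk1 in KO AAV over WT saline it was 0.0437 with only the 2 groups compared. Of 312 log2 changes under the alternatives 301 kept their sign, and of 384 with a library left out 376 did. Signs that turned, with the cause not tested, were those of Tmem106b in KO saline over WT saline (-0.019 with no count filter, -0.0061 with limma on the deposited CPM, -0.021 with sex as a term, -0.22 in males alone, -0.14 with the GC slope as a term) and, with the GC slope, Mapt (0.0054, 0.011 and 0.016 in KO saline over WT saline, KO AAV over KO saline and KO AAV over WT saline) and Ubqln2 in KO AAV over WT saline (-0.11). In males alone, KO AAV over WT saline gave -0.052 for Tardbp and -0.00083 for Chmp2b. With a library left out, the ranges that crossed 0 were -0.10 to 0.077 for Tmem106b, -0.22 to 0.0020 for Vcp and -0.012 to 0.17 for Sqstm1 in KO saline over WT saline, and -0.13 to 0.025 for Mapt in KO AAV over KO saline.

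Over all genes, calls in KO saline over WT saline were 5, against 16 with no count filter, 3 with a replicate block and 2 in males alone. In KO AAV over KO saline they were 2, against 4 with no filter, 1 with a mean CPM of at least 5, with the replicate block or without the libraries of RNA integrity number 8, and 0 in males alone or with limma on the deposited CPM; they ran from 1 to 2 with a library left out. In KO AAV over WT saline they were 1, against 2 with no filter. Replicate numbers were not treated as pairs in the main fit. Deviations of same-numbered libraries correlated at -0.43 to 0.44, and 5 of 30 best matches were of the same number. The numbers went in part with sex and age. In all 3 groups replicates 1, 2 and 3 were male and replicate 5 was female, and replicates 1 and 2 were 12.2 months old. Whether same-numbered animals shared a litter, cage or processing block was not tested, and likeness of levels cannot decide it. With the replicate block no member passed. The GC slope was added after seeing the data. Depth limits Optn and Tbk1 most.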
